A study of Mus musculus with 20 samples.

Results

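The genes described here are the galectins measured in BV-2 microglia together with the gene of galectin-3-binding protein. They are Lgals1, Lgals3, Lgals8, Lgals9 and Lgals3bp, taken as every entry of the deposited count matrix whose Ensembl identifier maps to one of these symbols, 5 of 55487 genes, and all 5 had enough counts to be tested. The study sequenced poly(A) RNA from 20 cultures of BV-2 cells, an immortalized microglial line derived from juvenile mouse brain, in 4 groups of 5: young untreated, aged untreated, young with LPS and aged with LPS. All 20 cultures were of genotype WT, young cells were low-passage cultures, and aged cells were the same line after long-term cultivation. LPS (lipopolysaccharide, a bacterial cell wall component sensed by Tlr4) was given at 100 ng/ml for 6 hours, and each of 5 batches held 1 culture of every group. Every group thus comes from the same cell line, and the age of the cells is their time in culture, not the age of an animal. The paper reports that the long-term cells were frozen and that thawed aliquots served for its experiments. The 5 aged cultures are thus not shown to be separate long-term cultivations, and p-values between the ages measure the spread between cultures. A change particular to that stock cannot be told apart from time in culture.

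Galectins are lectins that bind β-galactoside sugars on glycoproteins and glycolipids. They are made in the cytosol without a signal peptide and reach the cell surface by an unconventional route, so they act on both sides of the membrane, as bridges between surface glycans outside the cell and as sensors of exposed glycans on damaged vesicles inside it. Galectin-1 has a single carbohydrate-binding domain and forms dimers, galectin-3 carries a tail through which it oligomerizes, and galectins 8 and 9 join a pair of different domains by a linker. Galectin-3-binding protein is no galectin but a secreted, heavily glycosylated scavenger receptor family protein that galectins bind. Galectin-3 is known in microglia as a gene of activated and phagocytic states, and Lgals9 and Lgals3bp are known targets of interferons in other cells.

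The promoters of 4 of the 5 members were found in the RefSeq table of GRCm38.p6, each as 300 bases from 250 before the transcription start to 50 after it, and Lgals1 had no entry. The windows of Lgals9, Lgals3bp and Lgals8 are shown because these 3 of the 5 genes rose most under LPS. Capitals mark matches to motifs searched on both strands: the interferon-stimulated response element (ISRE, GAAA, any 2 bases, GAAA), the gamma-activated site (GAS, TTC, any 3 bases, GAA), the TATA box (TATAAA) and the NF-kB motif. They lie at chr11:78984875-78985174 for Lgals9, chr11:118401910-118402209 for Lgals3bp and chr13:12461689-12461988 for Lgals8, all on the minus strand, and are written 5′ to 3′.
Lgals9: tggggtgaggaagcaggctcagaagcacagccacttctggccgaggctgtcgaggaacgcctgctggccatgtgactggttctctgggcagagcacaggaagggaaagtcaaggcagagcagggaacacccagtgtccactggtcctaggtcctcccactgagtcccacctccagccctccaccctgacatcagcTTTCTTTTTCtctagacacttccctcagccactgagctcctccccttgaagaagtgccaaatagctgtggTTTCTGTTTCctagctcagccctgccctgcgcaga
Lgals3bp: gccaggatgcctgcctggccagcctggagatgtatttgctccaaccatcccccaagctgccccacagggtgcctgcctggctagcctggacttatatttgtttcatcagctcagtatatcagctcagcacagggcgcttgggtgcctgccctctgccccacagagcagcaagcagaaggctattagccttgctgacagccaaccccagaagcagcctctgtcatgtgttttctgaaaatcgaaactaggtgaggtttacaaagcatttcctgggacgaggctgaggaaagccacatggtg
Lgals8: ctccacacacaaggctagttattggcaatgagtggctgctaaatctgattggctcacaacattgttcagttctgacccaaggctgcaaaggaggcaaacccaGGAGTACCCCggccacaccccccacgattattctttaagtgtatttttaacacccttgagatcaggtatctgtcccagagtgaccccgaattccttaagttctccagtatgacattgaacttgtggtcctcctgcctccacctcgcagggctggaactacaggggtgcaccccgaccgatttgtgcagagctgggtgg
The window of Lgals9 held 2 ISRE matches, the first beginning 55 bases before the start and the other at base 16 counted from it, both read on the opposite strand and not overlapping another searched motif. Of 32851 promoters of this length, 3.44% held at least 1 ISRE match. The Lgals8 window held 1 NF-kB match, beginning 148 bases before the start, a motif found in 4.51% of promoters. The whole windows of Lgals8 and of Lgals3 (chr14:47373610-47373909, plus strand) lie inside the annotated spans of these genes. Their RefSeq starts are thus internal to those spans. No exact match to a searched motif was found in the windows of Lgals3bp and Lgals3, and looser or differently spaced forms were not searched. GAS and TATA matches occurred in 8.3% and 13.6% of all promoters. A match is a description of the letters only.

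Library totals ranged from 11371508 to 16829292 counts. The microglial markers Csf1r and Cd68 were high in every library, at 548 to 1010 and 813 to 1340 CPM (the deposited counts scaled to a common library size by TMM, the trimmed mean of M values), while the homeostatic markers Cx3cr1 and P2ry12 stayed below 2 CPM, at most 1.84 and 1.99. All 4 neuronal and all 4 fibroblast markers were at or under 3 counts in every library. The same held for 3 of 4 astrocyte, 2 of 4 oligodendrocyte and 2 of 3 endothelial markers. Summed over each list, the astrocyte, oligodendrocyte and endothelial markers reached at most 1.14, 1.89 and 0.378 CPM in any library. Young replicate 1 and aged replicate 3 were the highest libraries of their groups in Lgals1 and Lgals3, in untreated and LPS cultures alike, so results for these genes are also given without these 4 libraries. In bulk RNA, fewer cells expressing a gene and less RNA per cell cannot be told apart.

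Compared per length, as CPM per kilobase of merged exons, the order of the 5 genes differed between untreated and LPS cultures. In young untreated microglia Lgals1 had 357 ± 74.8 (SD, n = 5) and Lgals3 307 ± 57.2 CPM per kilobase, with overlapping ranges. Lgals8 followed at 13.1 ± 0.823 CPM per kilobase, 23.4 times below Lgals3. Lgals9 had 7.82 ± 1.45 and Lgals3bp 6.12 ± 1.14 CPM per kilobase, again with overlapping ranges. The order was the same in aged untreated cells, where Lgals3bp, at 1.79 ± 0.332 CPM per kilobase, was clear of Lgals9, at 5.46 ± 1.28.

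After LPS the order became Lgals3, Lgals1, Lgals9, Lgals8 and Lgals3bp in both ages. Lgals3 and Lgals1 still overlapped, at 405 ± 51.4 and 364 ± 65.9 CPM per kilobase in young cells. Lgals9 now lay above Lgals8 in young cells, at 88.8 ± 18.1 against 44.1 ± 2.37 CPM per kilobase with no overlap. In aged LPS cells the ranges of these 2 genes overlapped, at 42.4 ± 13.2 against 29.1 ± 2.36 CPM per kilobase. Taking the longest transcript as the length gave the same order in all 4 groups.

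**Figure D1:**
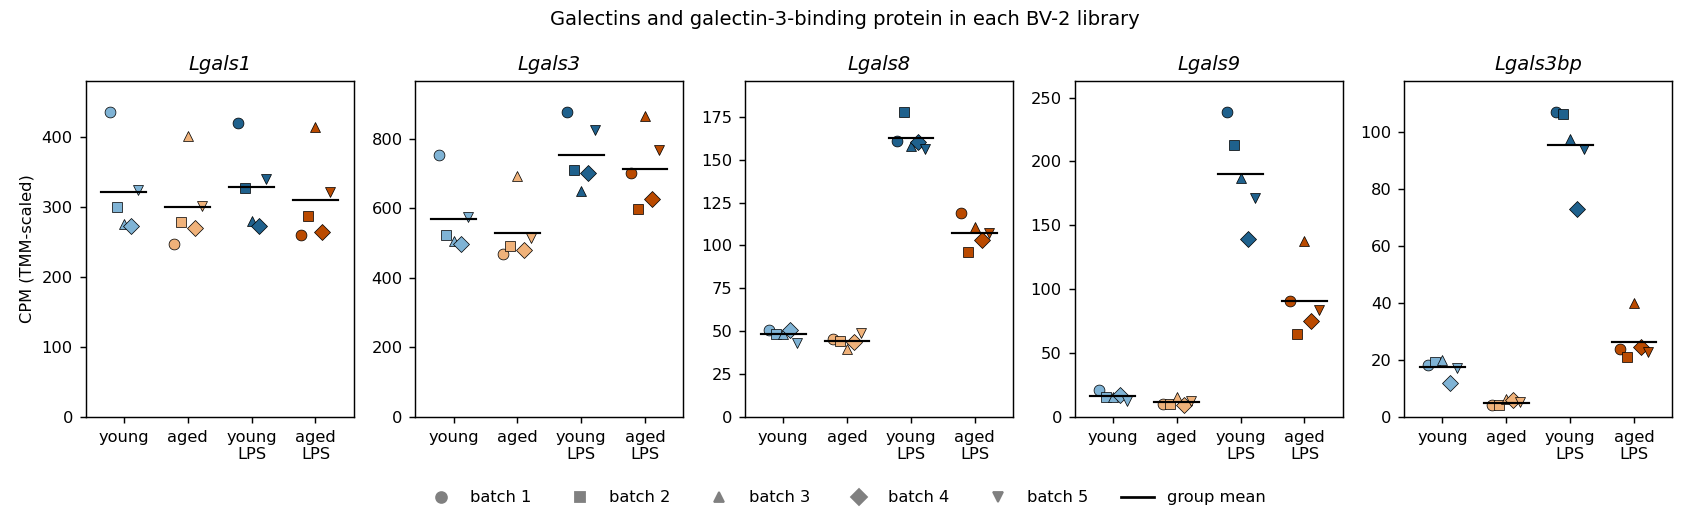
TMM-scaled CPM (linear axes from 0) of the 5 genes in each of the 20 libraries, with symbols for the 5 batches and a bar at each group mean. The 5 aged LPS libraries of Lgals3bp, at 21.1 to 39.9 CPM, lie below all 5 young LPS libraries, at 72.8 to 107 CPM.

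The first question is what LPS does to these genes in young cells and, separately, in aged cells. In young cells 4 of the 5 genes rose and none fell. The same 4, Lgals3, Lgals8, Lgals9 and Lgals3bp, rose in aged cells, and Lgals1 passed the test in neither. Of 12799 genes tested, edgeR's quasi-likelihood test with Benjamini-Hochberg adjustment called 31.2% higher and 33.5% lower in young cells and 27.5% higher and 26.9% lower in aged cells. The 5 genes had a median log2 fold change of 1.8 in young and 1.3 in aged cells, against -0.011 and 0.00051 over all genes tested.

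Lgals1, galectin-1, a dimeric galectin known for dampening immune responses, lies at chr15:78926725-78930465 on the plus strand of GRCm38. In young untreated replicates 1 to 5 it had 437, 300, 276, 273 and 325 CPM, and after LPS 421, 328, 281, 273 and 340 CPM. In aged untreated replicates it had 248, 279, 402, 271 and 302 CPM, and after LPS 260, 287, 415, 265 and 322 CPM. Replicate 1 was the highest young library and replicate 3 the highest aged library under both treatments, and all 4 groups overlapped. The LPS difference was 0.027 ± 0.15 (log2, SE) in young cells, with a 95% interval of -0.29 to 0.34 and edgeR adjusted p = 0.885. In aged cells it was 0.044 ± 0.15, with an interval of -0.27 to 0.36 and edgeR adjusted p = 0.832. Within batches the difference ran from -0.05 to 0.13 in young and from -0.04 to 0.1 in aged cells. Without these 4 libraries it was 0.056 in young and 0.043 in aged cells. Scaling by library totals alone made both differences negative, -0.19 and -0.12, and this scaling moved the median of all genes by -0.23 and -0.16. Both pseudogenes of Lgals1 had at most 3 counts in any library.

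Lgals3, galectin-3, the galectin with the oligomerizing tail, lies at chr14:47367751-47386160 on the plus strand. Young untreated replicates had 752, 523, 505, 496 and 574 CPM, and young LPS replicates 878, 710, 649, 700 and 826 CPM. Aged untreated replicates had 468, 492, 694, 480 and 514 CPM, and aged LPS replicates 700, 598, 866, 628 and 768 CPM. The groups overlapped through young replicate 1 and aged replicate 3, but in all 5 batches the LPS culture was the higher, in young and in aged cells. It rose 1.32-fold in young cells (95% interval 1.1 to 1.58, edgeR adjusted p = 0.00788) and 1.35-fold in aged cells (1.12 to 1.61, edgeR adjusted p = 0.00627). The log2 values were 0.40 and 0.43, and without these 4 libraries both were 0.46. Scaled by library totals alone the rises were 0.18 and 0.27 on the log2 scale and neither passed the test, with edgeR adjusted p of 0.185 and 0.0587.

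Lgals8, galectin-8, which marks damaged endosomes and lysosomes, lies at chr13:12439415-12464944 on the minus strand. Young untreated replicates had 50.7, 48.4, 48.1, 50.7 and 43.3 CPM, and young LPS replicates 161, 178, 158, 160 and 156 CPM. Aged untreated replicates had 45.7, 44.1, 39.8, 43.9 and 48.8 CPM, and aged LPS replicates 119, 96.0, 111, 103 and 107 CPM. No LPS library overlapped an untreated one, and no aged LPS library overlapped a young LPS one. Lgals8 rose 3.37-fold in young cells (95% interval 3.08 to 3.69, edgeR adjusted p = 2.71e-16) and 2.42-fold in aged cells (2.21 to 2.65, edgeR adjusted p = 9.85e-14). It shares 155 exon bases with Heatr1 on the opposite strand, and the strand setting of the counting was not given in the sources used here. Heatr1 had 3163 to 5567 counts per library, and its LPS differences were 0.0044 ± 0.045 and -0.012 ± 0.045 (log2, SE) in young and aged cells, with edgeR adjusted p of 0.938 and 0.852.

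Lgals9, galectin-9, a ligand of the checkpoint receptor Tim-3, lies at chr11:78962974-78984946 on the minus strand and is the gene with the ISRE matches printed above. Young untreated replicates had 21.3, 16.0, 15.7, 17.6 and 12.8 CPM, and young LPS replicates 239, 213, 187, 139 and 171 CPM. Aged untreated replicates had 10.2, 9.82, 15.9, 9.5 and 12.9 CPM, and aged LPS replicates 90.8, 64.7, 138, 75.5 and 84.0 CPM. Every LPS library lay above every untreated one, and the highest aged LPS library, replicate 3, lay just below the lowest young LPS library, replicate 4. Lgals9 showed the largest rise of the 5 genes, 11.4-fold in young cells (95% interval 8.58 to 15, edgeR adjusted p = 3.89e-13) and 7.76-fold in aged cells (5.84 to 10.3, edgeR adjusted p = 1.97e-11). It rose in 5 of 5 batches at each age, by 2.97 to 3.72 in young and 2.70 to 3.13 in aged cells on the log2 scale.

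Lgals3bp, galectin-3-binding protein, lies at chr11:118392751-118402092 on the minus strand. Young untreated replicates had 18.3, 19.4, 20.1, 11.9 and 17.3 CPM, and young LPS replicates 107, 106, 97.4, 72.8 and 93.9 CPM. Aged untreated replicates had 4.14, 4.1, 6.16, 5.82 and 5.19 CPM, and aged LPS replicates 23.7, 21.1, 39.9, 24.5 and 22.7 CPM. No pair of groups overlapped, and the aged LPS cultures, the lowest at 21.1 CPM, lay just above the young untreated ones, the highest at 20.1 CPM. The gene rose 5.46-fold in young cells (95% interval 4.35 to 6.87, edgeR adjusted p = 5.34e-12) and 5.16-fold in aged cells (3.95 to 6.74, edgeR adjusted p = 2.76e-10). Its lowest counts, in aged untreated libraries, were 61 to 108 per library, the lowest of the 5 genes in any group.

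**Figure D2:**
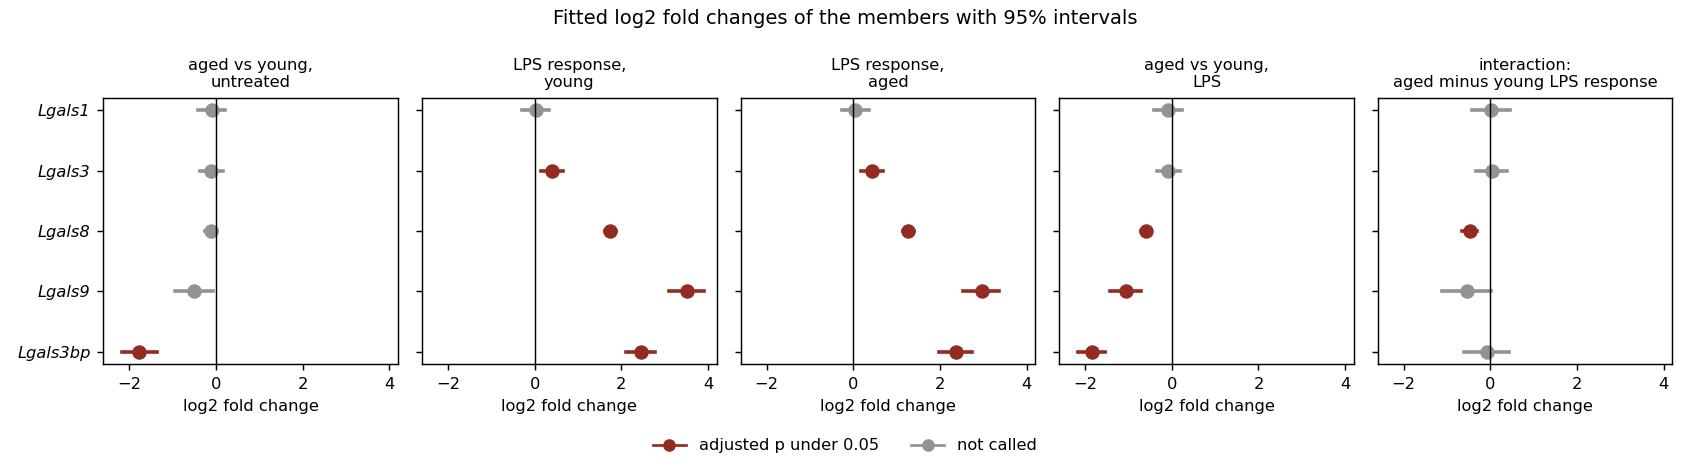
Fitted log2 fold changes (points) with 95% intervals (lines) of the 5 genes in the 4 comparisons and in the difference between the LPS responses, dark red where the adjusted p was under 0.05. Lgals3bp is the gene called lower in aged untreated cells (-1.77), and Lgals8 the gene whose LPS response differed between the ages (-0.48).

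The next question is whether these genes differ between aged and young cells without LPS. In untreated cells 1 of the 5 genes, Lgals3bp, was lower in aged cells and none was higher, where edgeR called 3.71% of all genes higher and 7.81% lower. The median over the 5 genes was -0.12 and over all genes tested -0.014 (log2). Lgals3bp fell from 17.4 ± 3.25 to 5.09 ± 0.946 CPM (SD, n = 5), a level 3.4-fold lower (95% interval 2.59 to 4.46, edgeR adjusted p = 1.8e-06). It was lower in aged cells in all 5 batches, by values from -2.21 to -1.02 on the log2 scale.

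Untreated, Lgals9 stood at 16.7 ± 3.1 CPM in young cells against 11.7 ± 2.73 CPM in aged ones, a difference of -0.51 ± 0.21 (log2, SE) with overlapping groups that did not pass the test (edgeR adjusted p = 0.12). With batch as a block it did not pass in edgeR (-0.52, adjusted p = 0.0597) but did in DESeq2 (-0.53, adjusted p = 0.0421). It also passed when only the untreated groups were fitted (-0.50, edgeR adjusted p = 0.0408) and, in a setting chosen after seeing the data, without young replicate 1 and aged replicate 3 (-0.56, edgeR adjusted p = 0.0214). Lgals1, Lgals3 and Lgals8 had differences of -0.10, -0.11 and -0.12 (log2), with edgeR adjusted p of 0.743, 0.661 and 0.257 and overlapping groups. Within batches Lgals1 ran from -0.82 to 0.54 and Lgals3 from -0.68 to 0.46, batch 1 at the low and batch 3 at the high end. Without those libraries the differences were -0.095 for Lgals1 and -0.10 for Lgals3, and neither passed the test.

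With LPS, 3 of the 5 genes were lower in aged than in young cells and none was higher, where edgeR called 14.0% of all genes higher and 15.0% lower. The median was -0.60 for the 5 genes against 0.0085 for all genes tested (log2). Lgals3bp stood at 95.4 ± 13.8 CPM in young LPS cells and at 26.4 ± 7.65 CPM in aged ones, 3.6-fold lower in aged cells (95% interval 2.89 to 4.5, edgeR adjusted p = 2.17e-08). Lgals9 had 190 ± 38.6 and 90.6 ± 28.2 CPM, 2.09-fold lower in aged cells (1.63 to 2.67, edgeR adjusted p = 6.58e-05). For Lgals8 the levels were 163 ± 8.74 and 107 ± 8.7 CPM, 1.51-fold lower in aged cells (1.39 to 1.65, edgeR adjusted p = 4.01e-07).

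All 3 were lower in the aged culture of every batch, with the smallest differences at -1.29 for Lgals3bp, -0.44 for Lgals9 and -0.43 for Lgals8 (log2). Lgals1 (-0.085, edgeR adjusted p = 0.726) and Lgals3 (-0.08, edgeR adjusted p = 0.689) did not pass the test, with 95% intervals of -0.40 to 0.23 and -0.34 to 0.18. Heatr1, which overlaps Lgals8, differed by 0.073 between aged and young LPS cells (edgeR adjusted p = 0.246).

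The last comparison asks whether the LPS response itself differs with age, as the interaction of age and LPS. It was smaller in aged cells for 1 of the 5 genes, Lgals8, and larger for none. Over all genes edgeR called 4.12% with a positive and 2.27% with a negative difference (log2, aged minus young). A weaker fall in aged cells counts as a positive difference. The Lgals8 response in aged cells minus that in young cells was -0.48 ± 0.088 (log2, SE; 95% interval -0.66 to -0.30, edgeR adjusted p = 0.00189), and lower in each of the 5 batches. For Lgals9 the difference was -0.55 ± 0.27, with an interval of -1.11 to 0.01 that did not pass the test (edgeR adjusted p = 0.269). Without aged LPS replicate 3 it was -0.75 and passed (edgeR adjusted p = 0.0404). For Lgals3bp it was -0.083 ± 0.25, with an interval of -0.60 to 0.43 (edgeR adjusted p = 0.916). The Lgals3bp levels thus stood 3.4-fold lower in aged cells without LPS and 3.6-fold lower with it. For Lgals1 and Lgals3 the interaction values were 0.016 ± 0.21 and 0.027 ± 0.18, with edgeR adjusted p of 0.988 and 0.969. With batch as a block in edgeR, every call on the 5 genes in these comparisons was the same, while the block in DESeq2 added the call of Lgals9 in untreated cells given above.

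As a share of the summed per-length levels of the 4 galectins, Lgals1 made up 52.0% ± 0.866 (SD, n = 5) in young untreated and 40.2% ± 1.6 in young LPS cells. Lgals9 went from 1.15% ± 0.191 to 9.84% ± 1.4 in young and from 0.855% ± 0.078 to 5.24% ± 0.801 in aged cells. Lgals8 went from 1.96% ± 0.341 to 4.96% ± 0.681 in young and from 1.95% ± 0.382 to 3.71% ± 0.542 in aged cells. Lgals3 held a similar share throughout, at 44.9% ± 0.493, 44.9% ± 0.888, 45.0% ± 2.33 and 48.2% ± 2.19 in young untreated, aged untreated, young LPS and aged LPS cells. A share falls when another member rises, and Lgals1 itself did not pass the test for LPS.

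**Figure D3:**
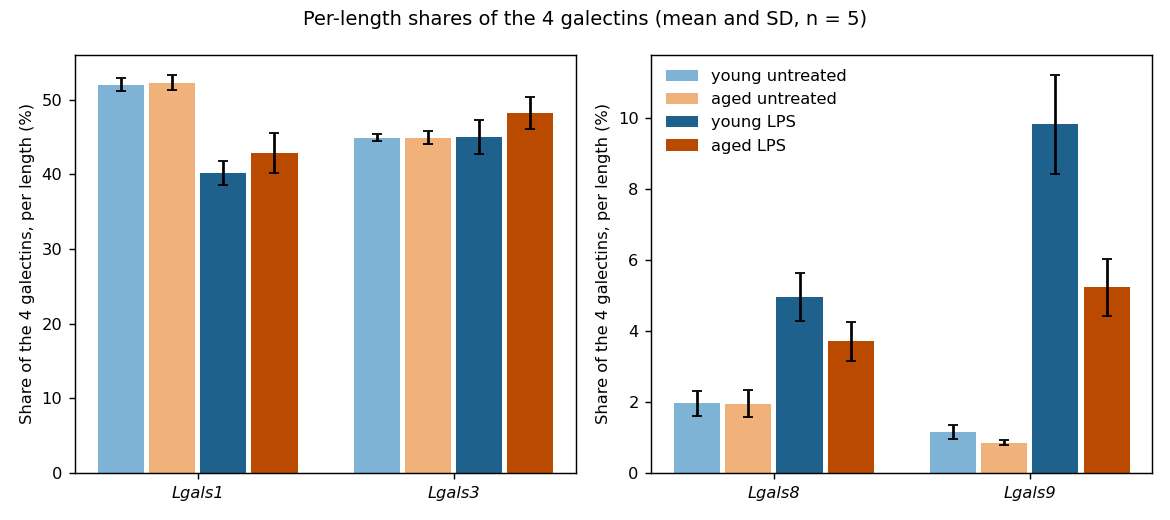
Mean share (bars from 0, error bars SD, n = 5) of each of the 4 galectins in their summed CPM per kilobase, by group. The shares of Lgals9 and Lgals8 are larger in both LPS groups, up to 9.84% and 4.96% in young LPS cells, while that of Lgals1 is smaller.

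Of the other galectin family genes, 2 had enough counts to be tested. Lgalsl, the galectin-related protein, had 17.3, 16.7, 14.2, 15.4 and 13.2 CPM in young untreated and 9.09, 9.29, 7.93, 9.18 and 9.21 CPM in young LPS replicates. In aged cells it had 15.9, 19.2, 17.6, 18.2 and 15.3 CPM without and 11.9, 17.6, 13.1, 17.5 and 11.9 CPM with LPS. It thus went the other way from the 4 members that rose, with no overlap between the young groups. Lgalsl fell by 0.78 ± 0.12 on the log2 scale in young cells (edgeR adjusted p = 3.92e-06) and by 0.26 ± 0.11 in aged cells (edgeR adjusted p = 0.048, but 0.053 in DESeq2). With LPS it was 1.61-fold higher in aged cells (95% interval 1.36 to 1.91, edgeR adjusted p = 0.000139). The difference between its LPS responses, 0.52 ± 0.16, did not pass the test (edgeR adjusted p = 0.0577). It did pass with batch as a block (edgeR adjusted p = 0.0203) and in DESeq2 without the block (DESeq2 adjusted p = 0.0372). Lgals2 had 4 to 25 counts per library and passed no comparison. Lgals4 had at most 6 counts and Lgals7 at most 1, and Lgals12 and Grifin had 0 counts in every library.

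The genes with the closest pattern to each member were ranked by the root mean square difference of log2 CPM, centred on each gene's mean, over the 20 libraries and 12798 other genes. Nearest to Lgals1 were Fxyd5 and Mocs2, each 0.13 away, and Snx5 at 0.14. Nearest to Lgals3 were Ctsb, a lysosomal protease, at 0.099, and Capg, an actin-capping protein, and Arhgap8, both at 0.13. Lgals1 and Lgals3 were 0.21 apart, the least of any pair of members. The distance is not scaled by a gene's own spread, so genes that vary little over the libraries lie near each other.

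Nearest to Lgals8 were Clic4 at 0.1, Ogfr at 0.11 and Mvp, the major vault protein, at 0.12. Near Lgals9 lay Tnfrsf1b, a TNF receptor, at 0.21, and Parp9 at 0.26. Near Lgals3bp lay Rasa4 at 0.3 and Ebi3, a subunit of interleukin-27, at 0.43. Rasa4 had mean log2 CPM of 3.90 in young and 2.31 in aged untreated cells, and of 6.75 and 5.02 in young and aged LPS cells, beside 4.11, 2.37, 6.57 and 4.69 for Lgals3bp. These distances are a description over libraries that share groups and batches.

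**Figure D4:**
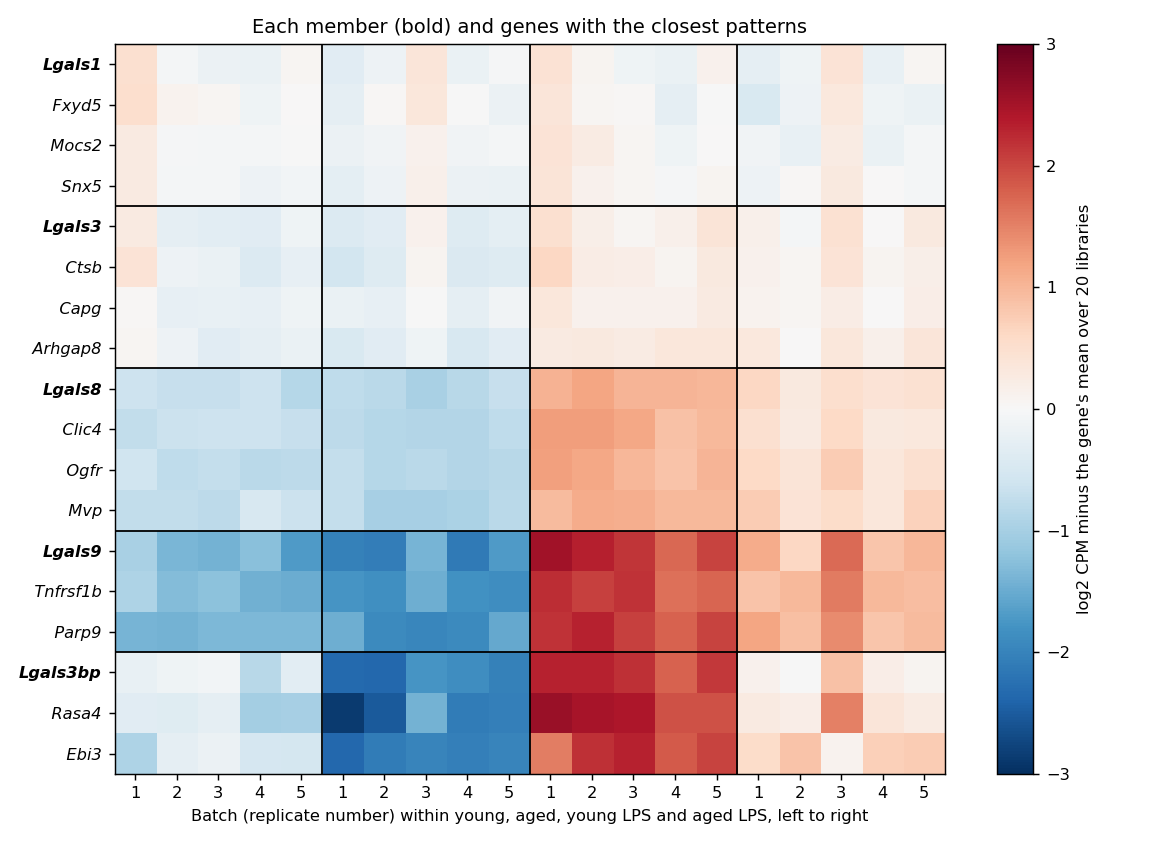
Colours give log2 CPM minus each gene's mean over the 20 libraries, for each member (bold) and genes near it in pattern, with libraries in columns by group and batch. Lgals3bp and Rasa4, 0.3 apart, are low in aged untreated and high in young LPS cells.

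Levels of 8 interferon-induced genes are given beside Lgals9 and Lgals3bp. All 8 rose with LPS at each age, where 31.2% of all genes were higher in young and 27.5% in aged cells. All 8 were lower in aged than in young LPS cells, with a median log2 difference of -1.4, where 15.0% of all genes were lower. In untreated cells 5 of the 8 were lower in aged cells and none was higher, where 7.81% of all genes were lower and 3.71% higher. These 5, Rsad2, Ifit1, Isg15, Oasl2 and Irf7, had 2 to 20 counts per library in aged untreated cells. Leaving out 1 library gave 2 to 6 calls among the 8, with 2 calls without young untreated replicate 1. The LPS response differed between the ages for 0 of the 8 by edgeR and by DESeq2, with 3 at an unadjusted p under 0.05. These differences went both ways, with a median of 1.1 (log2, aged minus young). Rsad2 was at 2.44 ± 0.89, from 0.866 CPM in aged untreated cells, and Bst2 at -0.38 ± 0.16 (log2, SE). Over the genes with a positive difference, counts in aged untreated libraries ran from 1 to 20, near the floor of 3. With batch as a block the response was smaller in aged cells for 2 of the 8 and larger for none. Bst2, a membrane tether of virions, had 279, 255, 229, 188 and 227 CPM in young LPS and 152, 128, 195, 137 and 135 CPM in aged LPS replicates, which overlap through aged replicate 3 and young replicate 4. Aged LPS replicate 3, the highest of its group in Lgals9 and Lgals3bp, was also the highest in 8 of these 8 genes. Young untreated replicate 1 was the highest of its group in 8 of 8 as well, with Rsad2 at 43.7 CPM against 3.64 to 12.7 CPM in the other replicates, and the highest in Lgals9 but not in Lgals3bp. Aged untreated replicate 3, the highest of its group in Lgals9 and Lgals3bp, was the highest in 1 of the 8, and had the lowest Rsad2 of its group at 0.171 CPM. The part of interferon signalling in the levels of Lgals9 and Lgals3bp was not tested.

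Galectins bind glycans whose synthesis depends on branching, galactosyl and sialyl transferases, and 23 of 26 such genes could be tested. LPS raised 8 and lowered 9 of them in young cells and raised 7 and lowered 10 in aged cells, with median log2 changes of 0.019 and -0.028. Over all genes the shares were 31.2% higher and 33.5% lower in young and 27.5% higher and 26.9% lower in aged cells. With library totals alone, which lowered the median of all genes as given above, 7 rose and 14 fell in young cells. St6gal1, which caps galactose with α2,6-linked sialic acid and so blocks the binding of most galectins, fell most. It had 71.0 ± 3.16 and 5.19 ± 0.412 CPM in young cells without and with LPS (edgeR adjusted p = 1.57e-19), and 57.1 ± 4.18 and 7.67 ± 0.943 CPM in aged cells (edgeR adjusted p = 2.63e-18). St3gal3, which adds sialic acid in α2,3 linkage, rose 4.04-fold in young and 3.53-fold in aged cells (edgeR adjusted p of 2.63e-15 and 3.6e-14). St3gal6, of the same linkage, rose 3.34-fold and 3.8-fold (edgeR adjusted p of 4.7e-06 and 4.56e-06), from about 1 CPM. B3gnt8, which extends poly-N-acetyllactosamine chains, fell by 1.79 on the log2 scale in young cells, and Gcnt2, which branches those chains, fell by 2.14 in aged cells (edgeR adjusted p of 2.53e-08 and 1.71e-10).

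Between aged and young untreated cells 4 glycan synthesis genes were lower and none was higher (7.81% and 3.71% of all genes), among them B3gnt3 at -0.63 ± 0.20 and St6gal1 at -0.32 ± 0.063 (log2, SE; edgeR adjusted p of 0.0433 and 0.00225). With LPS 4 were higher in aged cells, led by B3gnt8 (0.59) and St6gal1 (0.56), and 3 were lower, led by Mgat4a (-0.47) and St3gal3 (-0.46), where 14.0% of all genes were higher and 15.0% lower. With batch as a block 3 were higher and 6 lower, and B3gnt8 no longer passed (edgeR adjusted p = 0.0566, against 0.0448 without the block). The median log2 differences were -0.072 without and -0.044 with LPS. The LPS response differed between the ages for 4 of these genes, all with a positive difference (log2, aged minus young). Over all genes 4.12% had a positive and 2.27% a negative difference. For St6gal1 this interaction was 0.87 ± 0.11 and for B3gnt8 0.96 ± 0.27 (log2, SE; edgeR adjusted p of 0.000135 and 0.0331). The positive value of St6gal1 is a smaller fall, with LPS changes of -3.77 in young and -2.9 in aged cells (log2).

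Of glycoproteins known to bind galectins, 19 of 21 could be tested. LPS raised 6 and lowered 4 in young cells and raised 5 and lowered 4 in aged cells, with medians of 0.057 and 0.015 (log2), beside 31.2% higher and 33.5% lower over all genes in young and 27.5% and 26.9% in aged cells. With library totals alone 5 rose and 9 fell in young cells, and 5 rose and 8 fell in aged cells. Itga5, an integrin chain, rose from 105 ± 16 to 841 ± 113 CPM in young and from 85.0 ± 15.1 to 561 ± 83.5 CPM in aged cells (edgeR adjusted p of 4.9e-15 and 4.45e-14). Cd44, the hyaluronan receptor, rose 2.88-fold in young cells and the tetraspanin Cd82 2.39-fold in aged cells (edgeR adjusted p of 2.37e-07 and 3.03e-12). Mertk, a phagocytic receptor for which galectin-3 is a ligand, fell from 79.3 ± 3.44 to 15.1 ± 2.71 CPM in young and from 58.3 ± 4.42 to 10.6 ± 1.72 CPM in aged cells (edgeR adjusted p of 2.89e-15 and 6.46e-15). Tlr4, the receptor of LPS, fell by 1.03 and 0.78 on the log2 scale.

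In aged untreated cells 2 of the 19 were lower and none was higher, where 7.81% of all genes were lower: Mertk at -0.44 ± 0.089 and the lysosomal Lamp2 at -0.21 ± 0.062 (log2, SE; edgeR adjusted p of 0.00231 and 0.0272). With LPS 9 of the 19 were lower in aged cells and none was higher, with a median log2 difference of -0.27, where 15.0% of all genes were lower and 14.0% higher. Itga5 (-0.59 ± 0.12) and Cd44 (-0.55 ± 0.18) led this group (log2, SE; edgeR adjusted p of 0.000734 and 0.0274). The log2 LPS response was lower in aged cells for Ptprc (CD45), with a difference of -0.39 ± 0.079 (log2, SE; edgeR adjusted p = 0.00409). It was 1 of the 19, where 2.27% of all genes had a lower response.

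Inside the cell, galectins 3, 8 and 9 take part in sensing damaged lysosomes, and 19 genes of that response could all be tested. LPS raised 13 and lowered 1 at each age, with medians of 0.40 in young and 0.25 in aged cells (log2), where 31.2% of all genes were higher and 33.5% lower in young and 27.5% and 26.9% in aged cells. With library totals alone 9 rose and 5 fell in young cells, and 8 rose and 3 fell in aged cells. Sqstm1, the autophagy receptor p62, rose from 295 ± 24.5 to 1300 ± 203 CPM in young and from 266 ± 25.5 to 891 ± 206 CPM in aged cells (edgeR adjusted p of 1.7e-12 and 9.42e-11). Optn, another autophagy receptor, rose 3.07-fold and 2.2-fold from levels under 1 CPM. Tfeb, a transcription factor of lysosomal genes, was the gene that fell, by 1.66 and 1.26 on the log2 scale (edgeR adjusted p of 2.42e-11 and 2.45e-09).

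Between aged and young untreated cells 0 of these 19 genes passed edgeR's test, with a median log2 difference of -0.076, 5 at an unadjusted p under 0.05 and 1 called by DESeq2. With batch as a block Plaa was higher (0.14) and Pi4k2a lower (-0.15) on the log2 scale, both named here after their values were seen. In LPS cells 8 of the 19 were lower in aged than in young cells and 1 was higher, with a median log2 difference of -0.11, where 15.0% of all genes were lower and 14.0% higher. With library totals alone 5 were lower and 1 was higher. Optn (-1.35 ± 0.25) and Sqstm1 (-0.55 ± 0.12) were lower, and Tfeb (0.38 ± 0.12) was the gene that was higher (log2, SE; edgeR adjusted p of 0.00026, 0.00185 and 0.0237). The kinase Tbk1 had a lower log2 LPS response in aged cells, with a difference of -0.28 ± 0.068 (log2, SE; edgeR adjusted p = 0.0136). It was 1 of the 19, where 2.27% of all genes had a lower response. With batch as a block 3 of the 19 had a lower response.

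**Figure D5:**
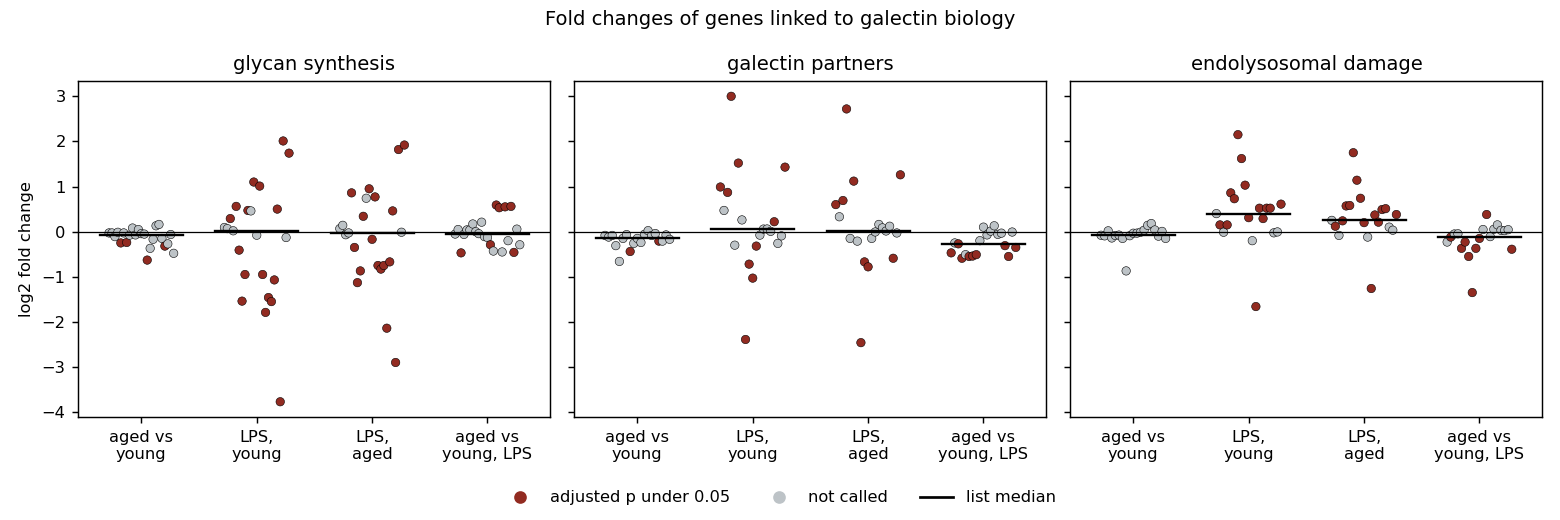
Log2 fold changes of single genes (points, dark red where the adjusted p was under 0.05) and list medians (bars) for the glycan synthesis, galectin partner and endolysosomal damage lists in 4 comparisons. In the endolysosomal damage list 13 of 19 genes rose with LPS at each age, and 8 of 19 were lower in aged than in young LPS cells.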

How the data were processed

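RNA from 20 BV-2 cultures, in 4 groups of 5, was sequenced from stranded poly(A) libraries. Per the labels, the reads were processed with STAR 2.6.1d and featureCounts 1.5.1, and the authors deposited raw counts per Ensembl gene on GRCm38, without normalization. The counting settings for strand, overlapping genes and multiple alignments were not given in the sources used here. GENCODE's GRCm38 annotation gave symbols, positions and exon lengths.

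Groups and replicate numbers, which the labels give as batch, were taken from the labels. All 4 groups were fitted together with edgeR 4.0.16 (quasi-likelihood F-test, TMM, filterByExpr, group as the only term) in R 4.3.3, and p-values were adjusted by Benjamini-Hochberg over 12799 genes, with calls at an adjusted p under 0.05. Intervals are 95% intervals from the fit. CPM uses TMM-scaled library sizes, except for the cell type markers, which are scaled by library totals, and log2 CPM a prior count of 2. CPM per kilobase divides by the merged exon length. A count of 3 was the floor of detection, which covers counting error only. DESeq2 1.42.0, other scalings and filters, a batch block and single libraries left out were alternatives.

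Because the labels mark a replicate number as a shared batch, the numbers were taken to pair the samples. The deviations of same-numbered libraries from their group means had a mean correlation of 0.146 over all pairs of groups, 0.268 between treatments of the same age and 0.077 between ages of the same treatment. Between the ages, replicate 1 had -0.0845 untreated and -0.214 with LPS, and replicate 5 had 0.253 and 0.275. Replicate libraries differed by more than sampling noise in all 40 pairs (chi-square per degree of freedom 2.31 to 24.4). On simulated counts, edgeR recovered 187 of 200 genes changed 2-fold between untreated aged and young libraries, with 8 false calls among 12635 genes. The simulation gave every gene the same dispersion and had no batch or outlying library, so these rates need not hold for the real libraries.

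The members and the gene lists were chosen with earlier results of these data known. Named are the 5 members, other galectin family genes, the 3 genes nearest to each member, and in each list and comparison the 2 called genes with the largest change in each direction. Interferon-induced genes are named where their values stand beside a member. Some genes that this rule takes are not reported here.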

Additional observations from a re-analysis of the deposited data

Results flagged for a closer look

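In 4 of the 20 groups of 5 values (5 genes in 4 groups), 1 library lay apart from the others by more than Dixon's 95% critical value, and chance alone flags about 1 in 20 groups. Aged untreated replicate 3 had a log2 CPM of 9.44 for Lgals3, with the next library at 9.01. Aged LPS replicate 3 had 5.32 for Lgals3bp, with the next at 4.63. Young untreated replicate 4 was low for Lgals3bp, at 3.59 with the next library at 4.12. Young LPS replicate 2 was high for Lgals8, at 7.48 with the next at 7.33. The LPS response of Lgals8 differed between the ages by the interaction test, by -0.48 (log2, aged minus young, edgeR adjusted p = 0.00189).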

How the results depend on the processing

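Of the 25 member fold changes, 13 were called, and all 13 kept direction and call without any single one of the 20 libraries. Under the 9 other settings (8 for the Lgals8 interaction, which has no fit with only the groups compared) they did too, except that scaling by library totals alone left Lgals3 under LPS at 0.18 in young and 0.27 in aged cells, past no threshold. That scaling moved the median of all genes by -0.23 (young LPS), -0.16 (aged LPS) and 0.088 (aged against young LPS), changed the share of higher calls from 48.2% to 27.3%, from 50.6% to 28.4% and from 48.3% to 70.1% (for the untreated age difference from 32.2% to 42.2%, for the interaction from 64.4% to 81.3%), and gave Lgals8 levels of 47.8 CPM in aged untreated and 148 CPM in young LPS cells. It also turned uncalled values: Lgals1 under LPS to -0.19 (young) and -0.12 (aged), and Lgals3 between LPS ages to 0.00097. The interaction of Lgals1 turned to -0.0038 with DESeq2 size factors, -0.0017 with DESeq2, -0.0066 with DESeq2 and the replicate block and -0.013 with young replicate 1 and aged replicate 3, both treatments, left out (a setting chosen after seeing the data), and that of Lgals3 to -0.002 with the DESeq2 block. The cause of these changes was not tested.

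Lgals9 in untreated cells became a call, raising the members called to 2, with only the groups compared (-0.50), the DESeq2 replicate block (-0.53) and the 4 libraries left out (-0.56). Genes called over all went from 1475 to 2233 (untreated age difference) and from 818 to 1351 (interaction) with the DESeq2 replicate block. With the replicate block in edgeR no member call changed, while endolysosomal damage calls went from 0 to 2 (untreated) and from 1 to 3 (interaction) and interferon-induced calls from 0 to 2 (interaction).

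List counts moved as follows. Untreated endolysosomal damage calls were 1 with DESeq2 size factors, library totals, DESeq2, only the groups compared and the 4 libraries left out, and 3 with the DESeq2 block. Its interaction calls were 2 with DESeq2 size factors, DESeq2 and the 10-count filter, 3 with the DESeq2 block and 0 without a filter, and its calls between LPS ages 5 with only the groups compared. Interferon-induced calls fell to 0 (untreated) and 2 (LPS in young, LPS in aged and age with LPS) with at least 10 counts in every library, since only 2 genes were then tested, and their interaction calls were 2 without a filter, with the DESeq2 block and with the 4 libraries left out. With the DESeq2 block the interaction called 7 glycan synthesis genes and 2 partners, and with the 4 libraries left out 11 glycan synthesis genes differed between LPS ages.

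With 1 library left out, Lgals1 ran from -0.23 to 0.033 and Lgals3 from -0.22 to 0.014 (untreated age), Lgals1 from -0.078 to 0.16 and from -0.084 to 0.17 (LPS, young and aged) and from -0.21 to 0.02 (age with LPS). The interactions ran from -0.12 to 0.14 (Lgals1), -0.093 to 0.14 (Lgals3), -0.28 to 0.026 (Lgals3bp) and -0.75 to -0.41 (Lgals9), with 1 to 2 members called, the Lgals9 call arising without aged LPS replicate 3. All genes called between untreated ages ran from 954 to 1646, with 977, 954 and 981 without young replicates 2 and 3 and aged replicate 4, untreated. In that comparison the calls ran from 1 to 5 (glycan synthesis), 1 to 4 (partners), 0 to 1 (endolysosomal damage) and 2 to 6 (interferon-induced), and in the interaction from 3 to 7, 1 to 1, 1 to 2 and 0 to 2. Depth limits Lgals2, Lgals4 and Lgals7, with at most 25, 6 and 1 counts.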
